A study of Homo sapiens with 4 samples.

Results

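The genes described here encode the subunits of the mitochondrial respiratory chain and ATP synthase, with cytochrome c, in AMO1 cells treated with vehicle or periplocin. AMO1 is a human cell line from a plasmacytoma, in which multiple myeloma is studied. Periplocin is a cardiac glycoside, one of the plant steroids that inhibit the plasma membrane sodium-potassium ATPase. Both groups were unmodified cells of this 1 line and were sampled at 6 h, the controls with DMSO at 0.10% and the treated cells with periplocin at 0.2 mM as the labels write it, a unit that was not checked here. Each group held 2 RNA sequencing libraries, and nothing in the labels says that they came from separate cultures, so p-values measure the spread between these libraries, which may be technical.

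Members were taken by a rule on names. The rule uses no measured difference, but it was chosen with earlier results of these data known. It took protein-coding genes with current symbols of the mitochondrially encoded subunits or of the NDUF, SDH, UQCR, COX4 to COX8 and ATP5 subunit families. CYC1 and CYCS were added by name. Of 103 such genes, 94 reached 1 TPM in at least 2 libraries and were members, out of 12947 genes that passed that filter in the whole table. TPM is a level per length of transcript, set so that every library sums to 1000000, so it can be compared between genes, and it shows shares of the RNA pool rather than RNA per cell. The members comprised 13 mitochondrially encoded genes and 81 nuclear genes. By complex there were 43 of complex I, 4 of complex II, 10 of complex III, 15 of complex IV and 19 of complex V, beside CYCS and 2 genes assigned to no complex.

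Oxidative phosphorylation passes electrons from NADH through complex I, and from succinate through complex II, to coenzyme Q, then through complex III, cytochrome c and complex IV to oxygen. Complexes I, III and IV pump protons across the inner mitochondrial membrane, and complex V, the ATP synthase, uses that gradient to make ATP. Complex II is encoded wholly in the nucleus, and the other complexes join subunits from both genomes, so their assembly needs transcripts made in separate compartments. Plasma cells secrete large amounts of antibody and draw on this pathway for ATP.

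Promoter sequence is shown for the nuclear members with the largest called differences, because the genes of this pathway are known as shared targets of the factors NRF1, GABPA, YY1 and SP1. RefSeq on GRCh38.p14 gave the 250 bases before the start of 66 of the 81 nuclear members and of 15843 protein-coding genes in all. Matches on either strand were sought to GCGCA, any base, then GCGC for NRF1, CCGGAAG for GABPA, AAGATGGCG for YY1 and GGGCGG for SP1. None of these motifs contains another, although a base can lie in a match of more than 1. For the called members with a log2 fold change beyond 0.5 in size, bases in exons of GENCODE 29 were left out of the printed stretches. Stretches under 100 bases, as for NDUFA7 and SDHA, are not printed. The stretch of NDUFV3 (chr21:42893059-42893264, plus strand) and that of COX7B (chrX:77899218-77899437, plus strand) follow, with motif matches in capitals.
NDUFV3: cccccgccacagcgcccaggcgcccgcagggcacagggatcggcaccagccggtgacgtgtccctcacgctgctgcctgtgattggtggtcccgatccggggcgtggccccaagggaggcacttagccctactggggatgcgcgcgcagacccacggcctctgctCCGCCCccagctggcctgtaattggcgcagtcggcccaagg
COX7B: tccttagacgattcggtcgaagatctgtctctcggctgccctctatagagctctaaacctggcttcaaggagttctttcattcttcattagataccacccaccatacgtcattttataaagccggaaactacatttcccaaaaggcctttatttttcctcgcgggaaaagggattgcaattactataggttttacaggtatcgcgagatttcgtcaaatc
The NDUFV3 stretch held 1 SP1 match, and the COX7B stretch held none of the 4 motifs. The NDUFV3 stretch lies before the RefSeq start but inside the GENCODE 29 span of the gene, which begins further upstream, at chr21:42879644.

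SDHA differed from both in holding 4 copies of the NRF1 motif, each 49 bases from the one before. Each copy is shown in capitals with its flanking bases, in order toward the RefSeq start, on the plus strand of chromosome 5. They lie at chr5:218144-218173, chr5:218193-218222, chr5:218242-218271 and chr5:218291-218319.
SDHA site 1: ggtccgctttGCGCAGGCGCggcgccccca
SDHA site 2: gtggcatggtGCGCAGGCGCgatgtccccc
SDHA site 3: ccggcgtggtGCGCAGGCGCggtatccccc
SDHA site 4: ccggtgtggtGCGCAGGCGCagtctgcgc
These sites lie close to the divergent gene CCDC127, and sites 3 and 4 fall in the first exon of SDHA transcripts that GENCODE starts further upstream. Over the members, an NRF1 match was present in 14 of 66 promoters (21.2%), against 7.65% of all protein-coding promoters. A GABPA match was present in 17 (25.8%), against 11.8%, while SP1 matches were as common in members (56.1%) as in all genes (56.0%). The YY1 motif was found in 1 member promoter (1.52%, against 0.751%). Among members that passed the test below, NRF1 matches were found for 2 of the 5 higher ones with a promoter in the table, SDHA and UQCRC1, and for 1 of the 8 lower ones, ATP5ME. Of the 53 promoters of members that did not pass, 11 held one. None of the 11 complex IV promoters held one, against 5 of 30 for complex I, 3 of 7 for complex III and 4 of 13 for complex V.

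Every library carried the plasma cell transcripts of its cell type: all 8 plasma cell markers reached 1 TPM, with a summed level of 3354 to 3662 TPM, most of it from SDC1. Of these markers PRDM1, IRF4, XBP1 and MZB1 were called lower with periplocin and SLAMF7 higher, and XBP1 and MZB1 lost their calls with size factors. The B cell markers summed to 0.817 to 2.04 TPM, and of 14 markers of B, T, NK, myeloid, fibroblast and epithelial cells 5 reached 1 TPM in any library. Between 12357 and 12915 genes reached 1 TPM in a library. TPM keeps no read depth, so no counting interval can be given for any value.

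Of the 94 members, 7 were higher and 10 were lower with periplocin, and 77 did not pass the test (limma on log2(TPM + 1), Benjamini-Hochberg adjustment over all 12947 genes, adjusted p under 0.05). Over all tested genes 10.4% were called higher and 18.9% lower, so the members' 7.45% and 10.6% were both below the background. Their median log2 fold change was -0.06, against -0.14 for all tested genes. The libraries of the 2 groups did not overlap for 17 members that were higher and 32 that were lower, against 25.4% and 43.4% of all genes. The median gene was thus lower with periplocin in the deposited TPM, and when the libraries were put on size factors (median of ratios), which brought the median of all genes to -0.01, the members split into 14 higher and 2 lower calls, against 15.5% and 13.5% of all genes. All 7 higher members kept their call under size factors, median centring and quantile normalization, whereas of the 10 lower members only NDUFA7 and NDUFV3 did, although all 10 kept their sign. When either DMSO library was left out, limma called no member and no gene at all. At an unadjusted p under 0.05 it then found 8 members higher and 10 lower without DMSO replicate 1, and 8 higher and 12 lower without DMSO replicate 2, against 12 and 20 with all libraries. Over all genes these numbers were 3925 and 4156, against 5585.

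**Figure D1:**
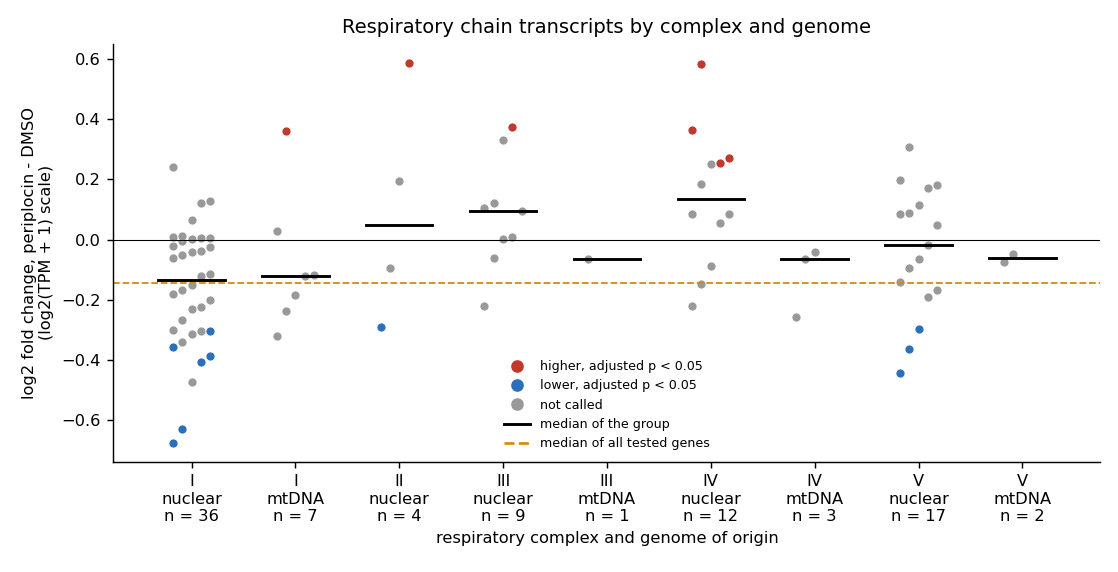
Log2 fold change of each member (periplocin minus DMSO, on the log2(TPM + 1) scale) by complex and genome of origin, with 1 point a gene, a bar at the median of each group, and red and blue for members called higher and lower. Nuclear subunits of complex IV have the highest median among the groups of 9 or more genes (0.13). They have 4 higher calls (33.3%, against 10.4% of all tested genes). Nuclear subunits of complex I have 6 lower calls (16.7%, against 18.9% of all tested genes) and none higher. CYCS and the 2 genes assigned to no complex are not plotted.

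Complex I, the NADH dehydrogenase, had the most members and the most lower calls by number, but not by share. None of its 36 nuclear subunits was called higher, and 6 fell (16.7%, against 18.9% of all genes), among them NDUFA7, NDUFV3, NDUFB10, NDUFA8 and NDUFB9. Their median log2 fold change was -0.14, level with that of all genes. Below 0 lay 27 of the 36, and 7836 of the 12947 tested genes. With size factors the median was 0.01, 2 stayed lower (NDUFA7 and NDUFV3), and NDUFB11, an accessory subunit of the membrane arm, was called higher.

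The largest complex I differences were in accessory subunits, which surround the catalytic core. NDUFA7 (chr19:8308768-8321396 on GRCh38, minus strand) had 144 and 141 TPM with DMSO and 97.5 and 86.7 TPM with periplocin. All values with periplocin lay well below both controls, and the gene fell by 0.63 on the log2 scale (SE 0.09, adjusted p = 0.00769, and 0.0168 with size factors). Its exons overlap those of RPS28 on the other strand, which was at 2089 and 1757 TPM with DMSO and 1902 and 1904 TPM with periplocin. Whether reads were counted by strand is not stated by the labels or the file, so reads of such overlapping pairs cannot be told apart. NDUFV3 (chr21:42879644-42913304, plus strand), an accessory subunit of the module that oxidises NADH, was the least abundant nuclear complex I member, with 22.4 and 24.4 TPM with DMSO and 14.9 and 13.7 TPM with periplocin. The groups did not overlap, and it fell by 0.67 on the log2 scale (SE 0.14, adjusted p = 0.0193, and 0.0357 with size factors).

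NDUFB10, NDUFA8 and NDUFB9 fell by less and lost their call with size factors. NDUFB10, an accessory subunit of the membrane arm, had 201 and 198 TPM with DMSO and 157 and 144 TPM with periplocin (log2 fold change -0.41, SE 0.08, adjusted p = 0.0164, and adjusted p = 0.0613 with size factors). NDUFA8, an accessory subunit facing the intermembrane space, had 70.8 and 70.6 TPM with DMSO and 53.6 and 54.0 TPM with periplocin (log2 fold change -0.39, SE 0.09, adjusted p = 0.0266, and 0.0941 with size factors). Replicates of both genes lay close together in each group, and the groups were clearly apart. NDUFB9, a membrane arm subunit, had 257 and 247 TPM with DMSO and 202 and 191 TPM with periplocin (log2 fold change -0.36, SE 0.08, adjusted p = 0.0195, and 0.0915 with size factors). Its exons overlap TATDN1 on the other strand, which had 17.5 and 16.4 TPM with DMSO and 6.25 and 8.19 TPM with periplocin.

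The core nuclear subunits carry the flavin and the iron-sulphur clusters. All 7 had a log2 fold change below 0, from -0.31 (NDUFV2) to -0.11 (NDUFS3). Their median was -0.20, against -0.14 for all tested genes, of which 7836 of 12947 lay below 0. With size factors the median of the 7 was -0.06. NDUFV1, which binds NADH and flavin mononucleotide, had 312 and 281 TPM with DMSO and 263 and 229.6 TPM with periplocin (adjusted p = 0.0892). NDUFS1, the iron-sulphur subunit next to it, had 84.5 and 86.0 TPM with DMSO and 77.4 and 71.0 TPM with periplocin (adjusted p = 0.155). Of the 29 accessory subunits 5 were called lower (17.2%, against 18.9% of all tested genes). Their median was -0.05, against -0.14 for all tested genes. The most abundant, NDUFA11 and NDUFS5, did not pass: NDUFA11 had 585 and 512 TPM with DMSO and 593 and 479 TPM with periplocin (adjusted p = 0.842), and NDUFS5 had 345 and 322 TPM with DMSO and 336 and 335 TPM with periplocin (adjusted p = 0.934). The treated libraries lay on both sides of the controls for NDUFA11 and between them for NDUFS5. The widest spread was in NDUFA3, with 70.4 and 48.3 TPM with DMSO and 67.6 and 25.6 TPM with periplocin, where the replicates differed by more than the group means.

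Complex II, succinate dehydrogenase, belongs to the citric acid cycle as well as to the chain, and its subunits went in different directions. SDHA (chr5:218241-256700, plus strand), the flavoprotein that oxidises succinate, had 237 and 218 TPM with DMSO and 361 and 324 TPM with periplocin. Both treated libraries were above both controls, and SDHA rose (log2 fold change 0.59, SE 0.09, adjusted p = 0.00805). SDHB, the iron-sulphur partner of SDHA, had 128 and 122 TPM with DMSO and 99.9 and 104 TPM with periplocin and fell by 0.29 on the log2 scale (SE 0.08, adjusted p = 0.0472, and 0.244 with size factors). The ratio of SDHA to SDHB in TPM was thus 1.85 and 1.79 with DMSO and 3.61 and 3.11 with periplocin. Dividing a whole library by 1 factor does not change this ratio, whereas quantile normalization can. The membrane anchors did not pass: SDHC had 260.1 and 227 TPM with DMSO and 229 and 226 TPM with periplocin (adjusted p = 0.452), overlapping between groups, and SDHD had 38.4 and 41.2 TPM with DMSO and 46.0 and 45.3 TPM with periplocin (adjusted p = 0.211).

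SDHA shares long stretches with transcribed pseudogenes, so reads may be split between rows. Rows named as SDHA pseudogenes held 20.6% to 27.2% of the summed TPM of SDHA and those rows. The largest of them, SDHAP1, had 49.7 and 43.2 TPM with DMSO and 57.4 and 51.7 TPM with periplocin (log2 fold change 0.23, adjusted p = 0.198). With the pseudogene rows added to SDHA, the gene still rose (log2 fold change 0.48, adjusted p = 0.0108). Other ways of splitting the reads were not tested.

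**Figure D2:**
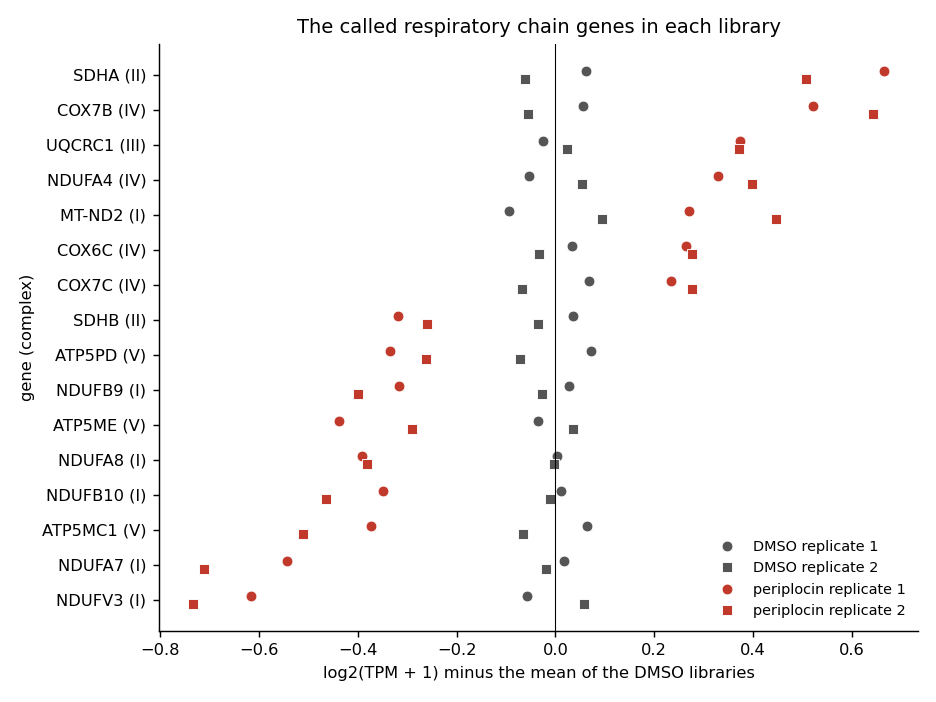
The called members in each library, 16 of the 17, as log2(TPM + 1) minus the mean of the DMSO libraries, with circles and squares for replicates 1 and 2, grey for DMSO and red for periplocin. In each plotted gene both periplocin points lie on the same side of both DMSO points, and SDHA, COX7B, NDUFA7 and NDUFV3 lie farthest from 0.

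Complex III, which passes electrons from coenzyme Q to cytochrome c, had 1 higher call among its 9 nuclear members (11.1%, against 10.4% of all genes) and no lower one, with a median log2 fold change of 0.10. UQCRC1 (chr3:48599002-48610976, minus strand), one of the large matrix-facing core proteins related to the mitochondrial processing peptidase, had 253 and 262 TPM with DMSO and 334 and 334 TPM with periplocin. Both periplocin libraries lay above both controls (log2 fold change 0.37, SE 0.07, adjusted p = 0.0133). UQCRC2, its partner, had 198 and 238 TPM with DMSO and 271 and 275 TPM with periplocin, and did not pass with the deposited scaling (log2 fold change 0.33, SE 0.10, adjusted p = 0.0582) but did with size factors (adjusted p = 0.0186). The electron-carrying subunits did not pass. CYC1, cytochrome c1, had 244 and 216 TPM with DMSO and 202 and 192 TPM with periplocin (log2 fold change -0.22, adjusted p = 0.115), and the ratio of UQCRC1 to CYC1 was 1.04 and 1.21 with DMSO and 1.65 and 1.74 with periplocin. UQCRFS1, the Rieske iron-sulphur protein, had 48.2 and 49.6 TPM with DMSO and 47.3 and 46.4 TPM with periplocin (adjusted p = 0.674), and its pseudogene rows held 38.6% to 44.5% of the summed TPM, so its level is uncertain. The most abundant nuclear subunit, UQCRH, the hinge protein, had 622 and 539 TPM with DMSO and 606 and 559 TPM with periplocin (adjusted p = 0.96), overlapping between groups.

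CYCS encodes cytochrome c, the soluble carrier between complexes III and IV that also takes part in apoptosis when it is released. It had 343 and 346 TPM with DMSO and 360.4 and 372 TPM with periplocin (log2 fold change 0.09, SE 0.07, adjusted p = 0.364). The groups did not overlap, the difference was small, and it passed only with another scaling (adjusted p = 0.0473 with size factors).

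Complex IV, cytochrome c oxidase, had the most higher calls. Of its 12 nuclear members 4 rose (33.3%, against 10.4% of all genes), COX7B, NDUFA4, COX6C and COX7C, and none was called lower. The median log2 fold change was 0.13, and 9 of the 12 lay above 0, against 5111 of the 12947 tested genes. In 6 the periplocin libraries lay above both controls, as they did in 25.4% of all genes. With size factors COX5A and COX6A1 were called higher as well, and the median was 0.28.

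COX7B (chrX:77899438-77907373, plus strand), a small membrane subunit, had 87.3 and 80.7 TPM with DMSO and 121 and 132 TPM with periplocin. Both periplocin values were higher than either control, and the rise was the largest in the complex (log2 fold change 0.58, SE 0.09, adjusted p = 0.00959). NDUFA4, which was named as a complex I subunit and is now placed in complex IV, had 124 and 134 TPM with DMSO and 162 and 169.8 TPM with periplocin (log2 fold change 0.36, SE 0.08, adjusted p = 0.0248). COX6C had 661 and 632 TPM with DMSO and 777 and 783 TPM with periplocin (log2 fold change 0.27, SE 0.06, adjusted p = 0.0257), and COX7C had 753 and 686 TPM with DMSO and 846 and 870.4 TPM with periplocin (log2 fold change 0.25, SE 0.07, adjusted p = 0.0448), both small accessory subunits of high abundance. Their rises were small beside that of COX7B, and with size factors the log2 fold changes were 0.42 for COX6C and 0.40 for COX7C.

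The members that did not pass were spread to both sides. COX4I1, the most abundant nuclear subunit and one that binds ATP, had 814 and 758 TPM with DMSO and 842 and 792 TPM with periplocin (adjusted p = 0.58), overlapping between groups. COX5B, a zinc-binding subunit on the matrix side, had 226 and 188 TPM with DMSO and 189 and 166 TPM with periplocin (adjusted p = 0.203), and the ratio of COX7B to COX5B was 0.385 and 0.429 with DMSO and 0.641 and 0.793 with periplocin. COX6B1, on the cytochrome c side, had 300.1 and 289 TPM with DMSO and 266 and 267 TPM with periplocin, with both treated values below the controls (adjusted p = 0.161). COX7A2L, which takes part in joining complexes III and IV into supercomplexes, had 119.9 and 114 TPM with DMSO and 105 and 114 TPM with periplocin (adjusted p = 0.488).

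Isoforms kept to particular tissues were close to absent. Of the 9 matching genes that missed the filter, none exceeded 0.890 TPM in any library: the complex IV isoforms COX4I2, COX6A2, COX6B2, COX7A1, COX7B2 and COX8C, the copies UQCRHL and ATP5MGL, and the readthrough gene NDUFC2-KCTD14. COX4I2, COX6A2 and COX8C were listed at 0 in all 4 libraries. NDUFA4L2, a paralogue of NDUFA4 known as a hypoxia target, was a member at 10.3 and 5.11 TPM with DMSO and 7.30 and 4.41 TPM with periplocin (adjusted p = 0.549).

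Complex V, the ATP synthase, had 3 lower calls and none higher among its 17 nuclear members, near the 18.9% of all genes called lower, with a median of -0.02. All 3 were outside the catalytic head. ATP5MC1, one of the genes for the c subunit of the rotating ring, had 473 and 433 TPM with DMSO and 349 and 317 TPM with periplocin (log2 fold change -0.44, SE 0.08, adjusted p = 0.015, and adjusted p = 0.0555 with size factors). The other two genes for the same mature protein did not follow: ATP5MC2 had 509 and 518 TPM with DMSO and 526 and 489 TPM with periplocin (adjusted p = 0.853), and ATP5MC3 had 777 and 670.3 TPM with DMSO and 796 and 768 TPM with periplocin (adjusted p = 0.353). Both had overlapping groups and were more abundant than ATP5MC1.

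ATP5ME, the e subunit near the dimer interface, had 243 and 256 TPM with DMSO and 184 and 204 TPM with periplocin (log2 fold change -0.36, SE 0.08, adjusted p = 0.0253, and 0.0932 with size factors). Its exons overlap MYL5 on the other strand, which had 11.2 and 10.6 TPM with DMSO and 6.16 and 5.42 TPM with periplocin. ATP5PD, the d subunit of the peripheral stalk, had 208 and 188 TPM with DMSO and 156 and 165 TPM with periplocin (log2 fold change -0.30, SE 0.09, adjusted p = 0.047, and 0.241 with size factors). It was the call nearest the threshold after SDHB, and it was lost when its pseudogene rows were added (log2 fold change -0.27, adjusted p = 0.0633).

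None of the 5 subunits of the catalytic head passed. ATP5F1B, the catalytic beta subunit and the most abundant nuclear member, had 1286 and 1342 TPM with DMSO and 1331 and 1387 TPM with periplocin (adjusted p = 0.589), overlapping between groups. ATP5F1A, the alpha subunit, had 687 and 763 TPM with DMSO and 809 and 834 TPM with periplocin, and ATP5F1E, the epsilon subunit, had 37.8 and 38.5 TPM with DMSO and 47.4 and 47.3 TPM with periplocin. In both the treated libraries lay above the controls, with adjusted p = 0.119 and 0.0687 with the deposited scaling and 0.022 and 0.0231 with size factors. ATP5MK, a small membrane subunit, had 718 and 805 TPM with DMSO and 760.2 and 856 TPM with periplocin (adjusted p = 0.512). The readthrough gene ATP5MF-PTCD1, which shares exons with both of its parent genes, had 8.87 and 12 TPM with DMSO and 6.25 and 3.57 TPM with periplocin and did not pass (log2 fold change -0.98, SE 0.29, adjusted p = 0.0505).

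Set against each other within a library, the nuclear parts shifted between the groups. The mean log2(TPM + 1) of complex IV members minus that of complex I members was 1.27 and 1.22 with DMSO and 1.51 and 1.57 with periplocin. For complex III minus complex I it was 0.465 and 0.415 with DMSO and 0.682 and 0.688 with periplocin. For complex V minus complex I it was 1.38 and 1.39 with DMSO and 1.48 and 1.54 with periplocin. In each of these differences both treated libraries lay above both controls, and complex IV, below complex V in the controls (by 0.113 and 0.174), was level with it or just above with periplocin (0.0276 and 0.0339). Such differences within a library hardly change when the whole library is divided by 1 factor, whereas quantile normalization can change them. With 2 libraries against 2 the smallest exact two-sided permutation p is 0.333, so they were not tested.

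**Figure D3:**
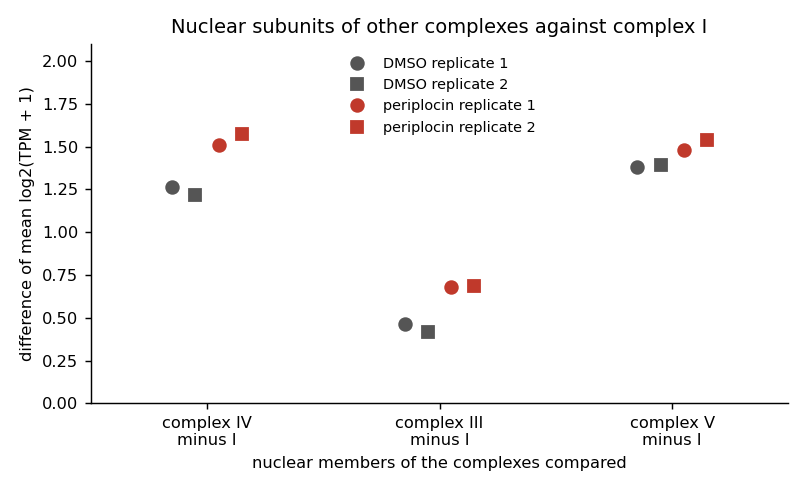
Mean log2(TPM + 1) over the nuclear members of complexes IV, III and V minus that of complex I, with 1 point a library, circles and squares for replicates 1 and 2, grey for DMSO and red for periplocin. In all 3 comparisons both periplocin libraries lie above both DMSO libraries, most clearly for complex IV (1.51 and 1.57 against 1.27 and 1.22).

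The mitochondrial genome supplies 7 subunits of complex I, 1 of complex III, 3 of complex IV and 2 of complex V. It is transcribed as long precursors from both strands, which are cut at the tRNAs between most of the genes, and MT-ND6 is the member on the strand opposite to the others. The 13 mRNAs made up 5.54% and 5.99% of all TPM with DMSO and 5.07% and 5.75% with periplocin, or 5.76 ± 0.315 against 5.41 ± 0.482 (mean ± SD, n = 2 libraries each). The groups overlapped. The 81 nuclear members together made up 2.19% and 2.09% with DMSO and 2.19% and 2.14% with periplocin, so the ratio of mitochondrially encoded to nuclear transcripts was 2.53 and 2.87 against 2.32 and 2.69, also overlapping. For complex IV alone the ratio was 4.62 and 5.57 with DMSO and 3.95 and 4.52 with periplocin, where the groups did not overlap. For complex I it was 4.49 and 4.98 with DMSO and 4.51 and 5.33 with periplocin, for complex III 0.700 and 0.914 against 0.646 and 0.787, and for complex V 0.448 and 0.476 against 0.396 and 0.497, and in each of these the groups overlapped.

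Levels of the 13 genes covered a wide range, although all but MT-ND6 are read from the same strand. MT-CO1, the catalytic subunit of cytochrome c oxidase, was the highest with 8815 and 10229.7 TPM with DMSO and 8756 and 9735 TPM with periplocin (log2 fold change -0.04, adjusted p = 0.771). MT-ND4L came next, with 9268 and 9065 TPM with DMSO and 7765 and 9205 TPM with periplocin (log2 fold change -0.12, adjusted p = 0.362). Both had overlapping groups, and since the levels of MT-CO1 and MT-ND4L also overlapped, their order is not clear. MT-CO2, the subunit that receives electrons from cytochrome c, had 7525 and 8598 TPM with DMSO and 7264 and 8128 TPM with periplocin (adjusted p = 0.613). MT-CO3, the remaining mitochondrially encoded subunit of complex IV, had 7046 and 7332 TPM with DMSO and 5610.2 and 6449 TPM with periplocin, lower in both treated libraries but just short of the threshold (log2 fold change -0.26, SE 0.08, adjusted p = 0.061). It was called lower under quantile normalization (log2 fold change -0.33, adjusted p = 0.0146). The lowest, MT-ND5, a proton-pumping subunit, had 1529 and 1761 TPM with DMSO and 1309 and 1479.5 TPM with periplocin (log2 fold change -0.24, adjusted p = 0.114). It was followed upwards by MT-ATP8, with 1577 and 1557 TPM with DMSO and 1357 and 1693 TPM with periplocin, and by MT-CYB, cytochrome b, with 1460.0 and 1739.8 TPM with DMSO and 1407 and 1648 TPM with periplocin, and the ranges of all 3 overlapped.

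MT-ND2 (chrM:4470-5511, plus strand), a membrane subunit of complex I, was the only mitochondrially encoded member that passed the test with the deposited scaling. It had 1823 and 2078 TPM with DMSO and 2348 and 2653 TPM with periplocin, and it rose (log2 fold change 0.36, SE 0.09, adjusted p = 0.0352) while its 12 companions did not pass. The ratio of MT-ND2 to MT-ND1, the gene before it on the same precursor, was 0.396 and 0.383 with DMSO and 0.487 and 0.493 with periplocin. Against MT-CO3 the ratio was 0.259 and 0.283 with DMSO and 0.419 and 0.411 with periplocin. MT-ND1 itself had 4604 and 5427 TPM with DMSO and 4827 and 5379.6 TPM with periplocin, overlapping between groups (log2 fold change 0.03, adjusted p = 0.853).

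Most other members had slightly lower values with periplocin, and 11 of the 13 fold changes were below 0. So were those of 7836 of the 12947 tested genes. The median log2 fold change of the 13 was -0.07, against -0.14 for all tested genes. MT-ND6 had 2158 and 2384 TPM with DMSO and 1667 and 1983 TPM with periplocin, the largest decrease in size, just short of the threshold (log2 fold change -0.32, SE 0.10, adjusted p = 0.0597). MT-ND3 had 4756 and 4041 TPM with DMSO and 3939.8 and 3786 TPM with periplocin (log2 fold change -0.18, adjusted p = 0.17), and MT-ND4 had 2965 and 3594 TPM with DMSO and 2763 and 3262 TPM with periplocin (adjusted p = 0.475). The groups did not overlap for MT-ND3, MT-ND5, MT-ND6 and MT-CO3, and did for MT-ND4. These 4 of the 13 had both treated libraries below both controls, as had 43.4% of all tested genes. MT-ATP6, which forms the proton channel of the ATP synthase with the c ring, had 1877 and 2054 TPM with DMSO and 1667 and 2087 TPM with periplocin (log2 fold change -0.07, adjusted p = 0.656). The fold changes were -0.05 for MT-ATP8 and -0.07 for MT-CYB on the log2 scale (adjusted p = 0.763 and 0.689). With size factors the log2 fold change was above 0 for every mitochondrially encoded member but MT-CO3, MT-ND3, MT-ND5 and MT-ND6, and MT-ND2 remained the 1 that was called.

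Genes that share an mRNA had ratios that overlapped between the groups. MT-ND4L and MT-ND4 overlap and are read from a common mRNA, and the ratio of their TPM was 3.13 and 2.52 with DMSO and 2.81 and 2.82 with periplocin. MT-ATP8 and MT-ATP6 also share an mRNA, and their ratio was 0.840 and 0.758 with DMSO and 0.814 and 0.811 with periplocin. In both pairs the treated libraries lay inside the range of the controls. Levels of overlapping genes are uncertain.

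DMSO replicate 2 was above DMSO replicate 1 in 10 of the 13, and periplocin replicate 2 above replicate 1 in 12 of the 13, against 29 and 35 of the 81 nuclear members. The mitochondrially encoded genes thus shifted together between replicates of the same group.

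**Figure D4:**
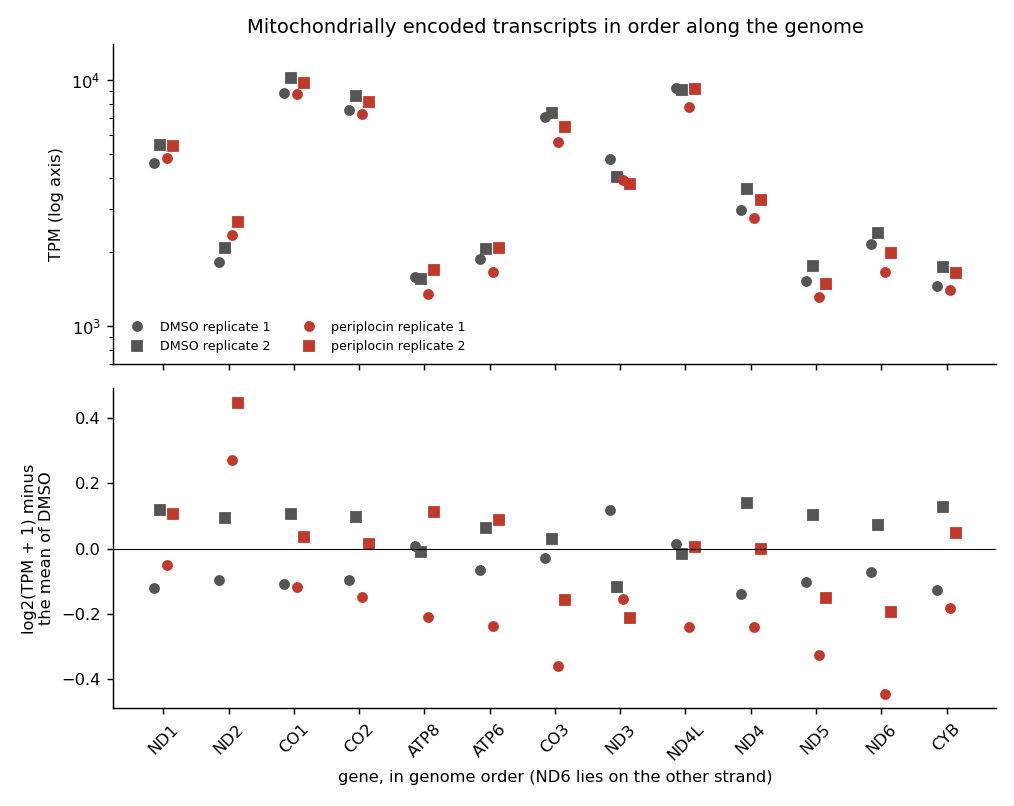
The 13 mitochondrially encoded members in their order along the mitochondrial genome, as TPM on a log axis (top) and as log2(TPM + 1) minus the mean of the DMSO libraries (bottom), with circles and squares for replicates 1 and 2, grey for DMSO and red for periplocin. Both periplocin values of MT-ND2 lie above both controls, and those of MT-CO3, MT-ND3, MT-ND5 and MT-ND6 lie below. Of all tested genes 25.4% lie above in this way and 43.4% below.

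Copies of mitochondrial genes in the nuclear genome and processed copies of nuclear members could share reads with them. The table held 630 rows named as pseudogenes of 63 members, of which 532 were listed at 0 in all libraries, 47 reached 1 TPM and 8 reached 10 TPM in any library. Pseudogene rows reached 1% of the summed TPM in any library for 14 members, most of all UQCRFS1, SDHA and MT-ATP6 (8.18% to 9.32%). On chromosome 1, rows of adjoining copies of mitochondrial DNA differed from one another. MTND1P23, a copy of part of MT-ND1, had 45.2 and 58.5 TPM with DMSO and 112 and 119 TPM with periplocin and rose (log2 fold change 1.15, SE 0.14, adjusted p = 0.00513). MTND2P28, a copy of MT-ND2, had 11.7 and 13.9 TPM with DMSO and 17.6 and 17.5 TPM with periplocin (log2 fold change 0.43, SE 0.16, adjusted p = 0.0871, and 0.0393 with size factors), and MTATP6P1 had 167 and 192 TPM with DMSO and 152 and 215 TPM with periplocin (adjusted p = 0.963). Elsewhere, on chromosome 4, MTND3P22 had 0 and 1.47 TPM with DMSO and 9.84 and 6.48 TPM with periplocin (log2 fold change 2.52, SE 0.47, adjusted p = 0.0142), with 1 control listed at 0. With its pseudogene rows added, MT-ND2 still rose (log2 fold change 0.36, adjusted p = 0.0348). The row of MTND2P28 was at 11.7 to 17.6 TPM, and that of MT-ND2 at 1823 to 2653 TPM. For MT-ND2, other ways of splitting the reads were not tested.

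Other genes build, supply and control the chain. Of 147 tested genes in 10 lists, 12 were higher and 37 lower, beside 7 and 10 of the 94 members, a difference that was not tested. With the deposited scaling, the background of 10.4% higher and 18.9% lower calls over all genes applies to each list below. With size factors it is 15.5% and 13.5%. The 147 genes had a median log2 fold change of -0.23, and with size factors 19 were higher and 27 lower. MTERF2, PRODH and CHDH missed the filter.

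Assembly factors of complex I had 6 lower calls and none higher among 18, against 18.9% and 10.4% of all genes. With size factors 5 were lower and 1 was higher, against 13.5% and 15.5% of all genes. NDUFAF3, which works with NDUFAF4 early in assembly, had 136 and 117 TPM with DMSO and 56.4 and 59.5 TPM with periplocin, and fell by 1.11 on the log2 scale (adjusted p = 0.00389). NDUFAF1, a factor for the membrane arm, had 20.5 and 23.0 TPM with DMSO and 7.72 and 8.46 TPM with periplocin and fell by 1.32 (adjusted p = 0.00513). Both were less than their control values by a wider margin than any complex I subunit. TIMMDC1, another membrane arm factor, had 45.1 and 30.9 TPM with DMSO and 15.5 and 20.4 TPM with periplocin (log2 fold change -1.03, adjusted p = 0.0209), and FOXRED1 had 52.4 and 54.3 TPM with DMSO and 30.7 and 29.6 TPM with periplocin (log2 fold change -0.80, adjusted p = 0.00588).

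Among 10 factors of complexes II and III, BCS1L, which inserts the Rieske protein, had 78.0 and 81.7 TPM with DMSO and 34.1 and 32 TPM with periplocin and fell by 1.25 on the log2 scale (adjusted p = 0.00326). SDHAF1, which helps to mature SDHB, rose, as SDHA did, with 27.6 and 25.2 TPM with DMSO and 40.8 and 39.2 TPM with periplocin (log2 fold change 0.58, adjusted p = 0.0171). TTC19, a complex III factor, fell by 0.52 (adjusted p = 0.0436, and 0.105 with size factors).

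Complex IV factors numbered 26, with 9 lower and 3 higher calls, against 18.9% and 10.4% of all genes. The subunits had 4 higher calls and none lower, and this difference between the lists was not tested. With size factors 6 of the factors were lower and 4 higher, against 13.5% and 15.5% of all genes. TACO1, an activator of MT-CO1 translation, had 68.5 and 62.7 TPM with DMSO and 23.5 and 24.0 TPM with periplocin and fell by 1.43 on the log2 scale (adjusted p = 0.00305), with no change called in MT-CO1 mRNA. PET117, COX18 and COA4 had log2 fold changes of -1.0, -0.94 and -0.91 (adjusted p = 0.00964, 0.0423 and 0.00413), and COX18 lost its call with size factors (adjusted p = 0.0611). The 3 higher factors were CMC2, COA6 and HIGD2A, with log2 fold changes of 0.63, 0.60 and 0.53. None of the 5 complex V factors passed, the most abundant of which were ATPAF1, which binds the beta subunit (59.7 and 67.7 TPM with DMSO and 49.2 and 51.4 TPM with periplocin, adjusted p = 0.0646), and TMEM70 (65.1 and 66.4 TPM with DMSO and 65.6 and 79.3 TPM with periplocin, adjusted p = 0.428).

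Factors that replicate, transcribe and process mitochondrial DNA and RNA had 11 lower calls and 1 higher among 33, against 18.9% and 10.4% of all genes. With size factors 7 of the 33 were lower, against 13.5% of all genes. MTRES1 had 22.5 and 23.1 TPM with DMSO and 6.92 and 3.86 TPM with periplocin and fell by 1.94 on the log2 scale (adjusted p = 0.00609). TFB1M, which methylates mitochondrial ribosomal RNA, had 12.1 and 16.0 TPM with DMSO and 2.93 and 5.98 TPM with periplocin (log2 fold change -1.51, adjusted p = 0.0194). RNASEH1, which removes RNA from RNA-DNA hybrids, fell by 1.10 on the log2 scale (adjusted p = 0.00394). SLIRP, a partner of LRPPRC in keeping mitochondrial mRNAs stable, had 235 and 222 TPM with DMSO and 97.3 and 128 TPM with periplocin (log2 fold change -1.02, adjusted p = 0.00617). TFAM, which packages and transcribes the genome, did not pass (62.7 and 73.8 TPM with DMSO and 54.6 and 68.9 TPM with periplocin, adjusted p = 0.481). The 1 higher gene was MTPAP, the mitochondrial poly(A) polymerase (26.0 and 29.9 TPM with DMSO and 43.7 and 47.4 TPM with periplocin, adjusted p = 0.0132).

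The nuclear regulators were the list with the highest median log2 fold change (0.40), with 5 higher and 1 lower among 12, against 10.4% and 18.9% of all genes. MYC, a transcription factor with many targets among mitochondrial genes, had 578 and 631 TPM with DMSO and 278 and 282 TPM with periplocin and fell by 1.11 on the log2 scale (adjusted p = 0.00218). SP1 had 20.0 and 21.9 TPM with DMSO and 44.7 and 43.3 TPM with periplocin (log2 fold change 1.04, adjusted p = 0.00458) and YY1 had 49.9 and 54.5 TPM with DMSO and 90.3 and 104 TPM with periplocin (log2 fold change 0.88, adjusted p = 0.00566). PPARGC1A, the coactivator PGC-1 alpha, had 27.3 and 33.2 TPM with DMSO and 53.7 and 58.2 TPM with periplocin (log2 fold change 0.87, adjusted p = 0.00821). These 3 rose while NRF1, whose motif was in 21.2% of member promoters, did not pass (9.33 and 13.3 TPM with DMSO and 12.7 and 11.1 TPM with periplocin, adjusted p = 0.799). GABPB1 and CREB1 were the other higher calls (log2 fold changes 0.69 and 0.44).

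Among 19 genes of the citric acid cycle and pyruvate dehydrogenase, 4 were lower and none higher. FH, fumarase, the next enzyme after succinate dehydrogenase, had 128 and 130.4 TPM with DMSO and 78.8 and 86.0 TPM with periplocin and fell by 0.64 on the log2 scale (adjusted p = 0.00649), the opposite direction to SDHA. OGDH and DLAT, subunits of the 2-oxoglutarate and pyruvate dehydrogenases, fell by 0.54 and 0.47 (adjusted p = 0.0101 and 0.0169). PC, pyruvate carboxylase, had 4.83 and 3.31 TPM with DMSO and 1.23 and 0.557 TPM with periplocin (log2 fold change -1.43, adjusted p = 0.0236). Of 7 other genes that feed electrons to coenzyme Q, ETFB was lower (121 and 106 TPM with DMSO and 86.9 and 71.2 TPM with periplocin, log2 fold change -0.52, adjusted p = 0.0298, and 0.0823 with size factors).

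Coenzyme Q synthesis and cytochrome c maturation had 2 higher and 3 lower calls among 14, near the 10.4% and 18.9% of all genes. COQ5, COQ3 and PDSS1, enzymes of ring modification and of the side chain, fell by 1.27, 1.02 and 0.83 on the log2 scale (adjusted p = 0.0196, 0.00904 and 0.0169). COQ10B, which binds coenzyme Q, had 16.7 and 14.1 TPM with DMSO and 27.9 and 32.7 TPM with periplocin (log2 fold change 0.93, adjusted p = 0.0104), and HCCS, which attaches haem to cytochrome c, had a log2 fold change of 0.46 (adjusted p = 0.0356). None of 3 further subunits and regulators outside the name families passed, among them NDUFAB1, the acyl carrier protein within complex I (185 and 190.3 TPM with DMSO and 197 and 212 TPM with periplocin, adjusted p = 0.281), and ATP5IF1, the inhibitor of the ATP synthase (154 and 113 TPM with DMSO and 119.9 and 121 TPM with periplocin, adjusted p = 0.538).

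**Figure D5:**
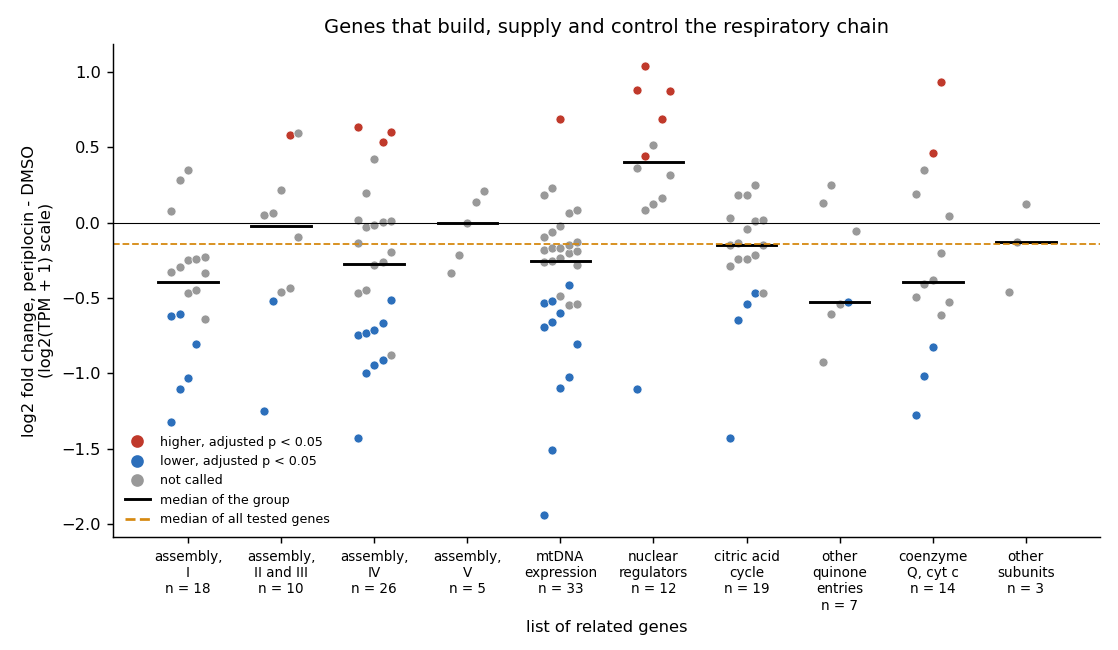
Log2 fold change of the 147 related genes (periplocin minus DMSO, log2(TPM + 1) scale) by list, with 1 point a gene, a bar at each list's median, a dashed line at the median of all tested genes, and red and blue for genes called higher and lower. The nuclear regulators have the highest median (0.40). Lower calls number 6 of 18 assembly factors of complex I and 9 of 26 of complex IV. For mitochondrial gene expression they number 11 of 33. Of all tested genes 18.9% were called lower.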

How the data were processed

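The authors deposited 1 table of TPM values for 37247 gene rows in 4 libraries. The submitters' processing notes name DESeq2 and GRCh38 without saying what each was used for. Aligner, quantifier and strand setting were not given in the sources used here. Columns written PP were read as periplocin. Symbols came from a current table (34436 identifiers matched) and positions from GENCODE 29 (34620). Depth is unknown, and an exact 0 can be a failed estimate.

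Genes with TPM of at least 1 in at least 2 libraries were compared as log2(TPM + 1) by limma-trend (limma 3.58.1, R 4.3.3). Tests were two-sided, p-values were adjusted by Benjamini and Hochberg's method across 12947 genes at a threshold of 0.05, and no block for replicate number was used. The fit had 2 residual and 4.01 prior degrees of freedom, and fold changes on this scale understate those of low genes. The fit was also run on simulated normal data with the spread that it had estimated. Such data meet its assumptions, so they do not test whether these libraries do. Alternatives were another pseudocount (0.1), other filters and scalings, no intensity trend, pseudogene rows added to their parents, each library left out, and a replicate block. Python 3.11.15, pandas 2.3.3, numpy 2.4.6 and matplotlib 3.10.9 were used.

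The members, lists and motifs were chosen with earlier results of these data known. Named were called members, all mitochondrially encoded members, the 2 most abundant members and the one with the lowest adjusted p in each nuclear part, genes that missed the filter, and up to 4 called genes in each related list with the largest fold change in size, or the 2 most abundant where none passed. NDUFV1, NDUFV2, NDUFS1, NDUFS3, NDUFA3, NDUFB11, SDHD, UQCRC2, CYC1, UQCRFS1, COX5A, COX5B, COX6A1, COX6B1, COX7A2L, ATP5MC2, ATP5MC3, ATP5F1A, ATP5F1E, TFAM, NRF1 and the further related genes that passed the test were named for their roles after their values were seen, as were the pseudogene rows. The values of 1 called member are not reported here.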

Additional observations from a re-analysis of the deposited data

How the results depend on the processing

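With 2 libraries a group, calls rest on limma's shared estimate of spread, and the smallest exact two-sided permutation p is 0.333. No result of a called member changed sign under any of the 14 alternatives. Of the 980 fold changes of named genes compared with their main value, 47 changed sign while staying uncalled. The 17 called members kept their call in 17 cases with TPM of at least 5, 16 each with a pseudocount of 0.1, quantile normalization and pseudogene rows added, 9 each under median centring or size factors, 6 without a filter and 4 without the intensity trend. With mitochondrially encoded rows left out all 16 nuclear calls remained.

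Members called higher and lower numbered 7 and 10 as reported, 3 and 3 without a filter, 14 and 2 with size factors, 15 and 2 after centring on the median, and 2 and 2 without the intensity trend. Leaving out 1 library gave 0 to 2 higher and 0 to 3 lower. Without periplocin replicate 1, 2 were higher and 3 lower, and without periplocin replicate 2, 1 was higher and 2 were lower. All genes called higher numbered 613 without a filter, 2117 with median centring, 876 without the intensity trend and 0 to 522 with 1 library left out, against 1352. All genes called lower numbered 1026 without a filter, 1553 with median centring and 0 to 1142 with 1 library left out, against 2443. Tests without a filter covered 21232 genes.

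With replicate number as a block, 12 members were higher and 23 lower, and all 17 calls remained. Over all genes the block gave 1685 higher and 2876 lower calls, against 1352 and 2443 without it. Same-numbered libraries deviated from their group means with a correlation of 0.0324. That value alone cannot show whether the numbers pair the samples.

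Size factors moved the log2 ratio of summed TPM (periplocin over DMSO) from -0.09 to 0.0542 for mitochondrially encoded members and from 0.01 to 0.16 for nuclear ones. By nuclear part it moved from -0.14 to 0.0074 for complex I, 0.17 to 0.32 for II, 0.10 to 0.24 for III, 0.15 to 0.30 for IV and -0.0065 to 0.14 for V. For mitochondrially encoded subunits it moved from -0.08 to 0.0631 for complex I and from -0.11 to 0.0372 for complex IV. These shifts follow from the scaling itself, which raises treated over control values by the same factor for every gene.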
